A study of Mus musculus with 18 samples.

Results

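The regions described here are the accessible regions (ATAC-seq peaks) in and around the genes of the BET proteins Brd2 and Brd3, of Hexim1, and of the P-TEFb subunits Cdk9, Ccnt1 and Ccnt2. A peak was taken as a member when it overlapped the body of 1 of these 6 genes extended by 25 kb on both sides, in the mouse genome build mm9 with the GENCODE M1 annotation. The rule used positions only and found 136 of 194284 peaks: 22 for Brd2, 33 for Brd3, 17 for Hexim1, 18 for Cdk9, 25 for Ccnt1 and 21 for Ccnt2. The authors had classed 51 of them as promoter and 85 as distal peaks. The windows hold other genes too: 53 of the 136 peaks lay in a member's gene body, 62 were nearer to the start of a member than to that of any other gene, and 20 lay over the start of another gene, among them H2-DMa, H2-DMb2 and H2-Oa beside Brd2, Wdr5 and Vav2 beside Brd3, Hexim2 beside Hexim1, and Sh2d3c and Fpgs beside Cdk9. Peaks are numbered within each gene's window in the direction of that gene's transcription. No peak overlapped 2 members.

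BET proteins carry paired bromodomains that hold acetylated histone tails, and they help recruit the machinery that releases paused RNA polymerase II into elongation. P-TEFb is the kinase of that step: its catalytic subunit Cdk9 pairs with cyclin T1 (Ccnt1) or cyclin T2 (Ccnt2) and phosphorylates the polymerase and its pausing factors. Hexim1 binds P-TEFb within the 7SK ribonucleoprotein and keeps it inactive, and a rise of Hexim1 transcripts is a commonly used sign that BET inhibitors have acted on cells. (+)-JQ1, the active enantiomer of the compound, competes with acetylated histones for BET bromodomains, so these 6 genes encode its targets and the kinase system next to them. An ATAC-seq count reports how open the DNA of a region was, not how much a gene was transcribed.

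Bone marrow-derived macrophages (BMDMs) were grown in L929-conditioned medium from 3 Il10-/- mice on the C57BL/6J background, described by the study as male and 12 weeks old. All 18 libraries thus lack endogenous IL-10, including the controls. There were 6 groups of 3 libraries: unstimulated cells (16 hours in culture without treatment), cells given 500 nM (+)-JQ1, cells given 10 ng/mL IL-10, cells stimulated with 50 ng/mL LPS, a bacterial cell wall component, for 4 hours, and cells that received 500 nM (+)-JQ1 or 10 ng/mL IL-10 for 12 hours before the same LPS stimulation. Either agent alone was likewise given 12 hours before the last 4 hours, in which PBS stood in for LPS. The study's methods name a vehicle control for the 12 hours before LPS, and describe the unstimulated cells as untreated. If the latter got no vehicle, (+)-JQ1 and its vehicle cannot be told apart in comparisons with unstimulated cells. The labels number the replicates 1 to 3 in every group and do not say which mouse gave which library. Libraries held 12020526 to 25908198 counts in peaks. As a check of the labelled cell type, 6 of 8 macrophage markers had a peak at their start, with means of 12.8 to 39.3 CPM (Mertk, Adgre1 and Spi1 among them), while Csf1r and Cd68 had none, and their summed level was 92.5 to 201 CPM in every library. None of the T cell genes Cd3e, Cd3d, Cd3g, Cd4 and Cd8a had one. Of the other lists 3 of 5 B cell, 3 of 5 neutrophil, 3 of 4 fibroblast or endothelium markers and 1 of 6 T cell markers had a start peak, all below 4 CPM on average except Lck (6.71 CPM) and Col1a1 (14.5 CPM).

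Levels are given as CPM, that is, counts relative to the library total after TMM scaling, and changes as log2 fold changes with their standard error from edgeR's quasi-likelihood test, fitted over 194230 peaks. All 136 member peaks passed the filter on low counts. A peak is called a differentially accessible region (DAR) at an FDR under 0.05 and an absolute log2 fold change above 0.5. The libraries differed in scaling: the TMM factors of unstimulated replicates 1 and 2 were the highest (1.24 and 1.15), while that of replicate 3 (1.04) lay within the range of the other 15 libraries (0.896 to 1.05). Promoter peaks held 40.8%, 42.8% and 45.5% of the counts in the unstimulated libraries, 42.4% to 43.8% with LPS + IL-10 and 48.5% to 51.1% with (+)-JQ1 alone, which were the 3 highest shares of the 18. Comparisons with unstimulated cells at strong promoters are therefore given under other scalings beside the result.

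The sequences before the starts of Hexim1, the P-TEFb inhibitor, and Ccnt2, whose start peak had the largest log2 fold change of the 6 members' start peaks with (+)-JQ1 in resting cells, are shown because a peak lay over each start. Both are the 250 bases before the annotated start, on the plus strand of mm9, which is the coding strand of both genes, and capitals mark matches to the motifs named below.

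Hexim1 (chr11:102977389-102977638): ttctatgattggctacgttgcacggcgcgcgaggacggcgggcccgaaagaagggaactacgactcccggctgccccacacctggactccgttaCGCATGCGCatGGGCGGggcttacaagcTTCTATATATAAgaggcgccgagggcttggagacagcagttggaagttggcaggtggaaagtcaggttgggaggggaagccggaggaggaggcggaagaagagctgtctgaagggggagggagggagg

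Ccnt2 (chr1:129670491-129670740): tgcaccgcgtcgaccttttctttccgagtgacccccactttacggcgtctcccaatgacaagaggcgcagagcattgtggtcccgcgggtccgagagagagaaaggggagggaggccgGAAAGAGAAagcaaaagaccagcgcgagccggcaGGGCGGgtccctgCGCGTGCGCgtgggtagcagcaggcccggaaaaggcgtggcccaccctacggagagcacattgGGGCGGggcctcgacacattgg

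The letters searched on both strands, with the share of all 194284 peak centres of 300 bases and of the 250 bases before the starts of all 22380 protein-coding genes that hold them, were GCGCANGCG for NRF1 (0.645% and 6.39%), GGGCGG for SP1 (8.09% and 39.6%), TATANAA for a TATA box (14.1% and 10.3%), GAAANNGAA for an ISRE core (10.1% and 7.55%) and TTGCNNAA for C/EBP (12.5% and 9.16%). TGANTCA for AP-1, TGACGTCA for CRE, GAGGAAGT for PU.1, GGANTTTCC for kappaB, CCGGAAGT for GABPA and CACGTG for an E-box were searched too and are not in the sequences shown.

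The Hexim1 stretch held an NRF1 match, an SP1 match and 2 overlapping TATA box matches and was 61.2% GC with 18 CpG dinucleotides. The Ccnt2 stretch held an NRF1 match, 2 SP1 matches and an ISRE core match, with 64.8% GC and 24 CpG dinucleotides. A match is a description of the letters only.

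At the BET genes, the start peak of Brd2 by annotation was weak and the strong promoter peak lay inside the gene. Brd2 peak 10 (chr17:34257585-34258319, in an exon with untranslated sequence, centre 1.3 kb from the gene start and the nearest peak to it) had 18.2, 21.9 and 25.4 CPM in the unstimulated libraries and 26.4 to 38.6 CPM in the other 15. Brd2 peak 12, over an alternative start near the 3′ end, was the strongest peak that overlapped an annotated Brd2 start and had 4.75 to 7.80 CPM in unstimulated libraries. Brd3, the second BET gene, had almost no signal at the outermost annotated start, where peak 8 held 0.21 to 1.80 CPM over the 18 libraries. The Brd3 start peak was peak 15 (chr2:27330587-27331756), 32.0 kb into the gene over an internal annotated start, with 31.8 to 73.7 CPM.

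At Hexim1, peak 6 (chr11:102977500-102979503) covered the single annotated start and had 38.4, 52.8 and 56.3 CPM in unstimulated libraries, 61.5, 75.6 and 77.4 CPM with (+)-JQ1, 62.2, 66.95 and 70.3 CPM with IL-10, 65.7, 54.6 and 59.6 CPM with LPS alone, 65.5, 71.4 and 61.9 CPM with LPS + (+)-JQ1 and 54.9, 61.1 and 48.5 CPM with LPS + IL-10. The (+)-JQ1 libraries lay above all 3 unstimulated ones, and each treated group with LPS overlapped the group with LPS alone.

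Of the P-TEFb genes, Cdk9 had 2 strong peaks side by side, peak 5 just before the gene start (25.5 to 63.8 CPM) and peak 6 over an annotated start just inside it (31.4 to 67.7 CPM). Ccnt1 resembled the BET genes: peak 4 over its outermost start, shared with 4930415O20Rik, had 2.30 to 6.76 CPM, while peak 6, over an internal start 3.0 kb further on, had 31.0 to 68.3 CPM. Ccnt2 peak 2 (chr1:129670337-129671243) was the strongest start peak of the 6 genes by mean level (67.7 CPM), with 39.8, 46.6 and 60 CPM in unstimulated libraries and 82.1, 107 and 88.3 CPM with (+)-JQ1. Peaks differ in width, so levels are per peak and not per length.

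Across the 136 member peaks, (+)-JQ1 in resting cells called 23 DARs higher and 2 lower, against 7.85% higher and 3.15% lower among all tested peaks, which is 16.9% and 1.47% of the members. With LPS present, (+)-JQ1 called 9 higher and 3 lower (6.62% and 2.21% of the members, against 1.74% and 3.49% of all peaks). IL-10 in resting cells called 10 higher and 1 lower (all peaks 5.16% and 3.50%), and IL-10 before LPS called 3 higher and 2 lower (all peaks 4.26% and 4.51%). LPS alone called 15 higher and 6 lower (all peaks 11.7% and 10.2%), so its share of members lay near the background for peaks that rose. Promoter peaks were 51 of the 136 members, against 36670 of all 194284 peaks. By class, (+)-JQ1 in resting cells called 31.4% of the member promoter peaks higher, against 22.9% of all promoter peaks. For distal peaks the shares were 8.24% and 4.34%. The excess of rising peaks against unstimulated cells also followed the scaling: for (+)-JQ1 the split of 23 higher and 2 lower became 11 and 15 with scaling by the total count and 4 and 4 with loess offsets, which remove trends with peak strength. For LPS + (+)-JQ1 against LPS the split was 9 and 3 with TMM, 7 and 3 with total counts and 9 and 3 with loess offsets. Scaling by total counts moved the median over all peaks (log2 fold change) from -0.085 to -0.366 for (+)-JQ1 alone, from -0.032 to -0.261 for LPS, from -0.049 to -0.257 for IL-10 alone and from -0.003 to -0.012 for (+)-JQ1 within LPS. The split for LPS was 5 higher and 16 lower with total counts and 7 and 6 with loess offsets, and that for IL-10 alone was 1 and 8 and 1 and 2. In bulk libraries a region open in more cells and a region more open in each cell cannot be told apart.

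The clearest change was a cluster of distal peaks past the 3′ end of Brd2 that opened with (+)-JQ1 in resting and in LPS-stimulated cells. Peaks 13, 14 and 15 began 2.6, 5.0 and 6.0 kb beyond the annotated end of the gene, in the interval toward H2-Oa, whose first overlapping peak began 18.3 kb from the Brd2 end. The start nearest to each was one of Brd2. Peak 14 was chosen by the rule on smallest p for both (+)-JQ1 comparisons and peak 15 for LPS, whereas peaks 11 and 13 were added after their values were seen. The central 300 bases of peaks 13 and 14 are shown because these are the places that opened, in mm9 and on the plus strand, with Brd2 transcribed from the minus strand.

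Brd2 peak 13 (chr17:34245938-34246237): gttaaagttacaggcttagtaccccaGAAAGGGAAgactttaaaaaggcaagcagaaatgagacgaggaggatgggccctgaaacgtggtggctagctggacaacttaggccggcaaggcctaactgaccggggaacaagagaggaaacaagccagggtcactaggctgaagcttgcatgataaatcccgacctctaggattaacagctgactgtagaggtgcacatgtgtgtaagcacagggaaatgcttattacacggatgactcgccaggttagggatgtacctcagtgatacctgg

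Brd2 peak 14 (chr17:34243405-34243704): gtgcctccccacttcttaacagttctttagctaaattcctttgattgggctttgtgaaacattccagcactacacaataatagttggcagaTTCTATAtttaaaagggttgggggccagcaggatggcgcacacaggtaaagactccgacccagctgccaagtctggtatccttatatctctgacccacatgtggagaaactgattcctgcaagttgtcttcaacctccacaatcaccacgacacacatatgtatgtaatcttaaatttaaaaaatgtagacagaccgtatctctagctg

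The first held an ISRE core match and the second a TATA box match. The deposited table gives the borders of each peak and not its summit, so the centre need not be the most open base.

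Brd2 peak 14 (chr17:34243128-34243982) had 2.21, 2.86 and 3.23 CPM in unstimulated libraries and 8.11, 7.91 and 7.89 CPM with (+)-JQ1, a log2 fold change of 1.51 ± 0.19 (SE, FDR 1.61e-08). With LPS alone the libraries had 4.00, 4.45 and 5.85 CPM, and with LPS + (+)-JQ1 12.1, 12.6 and 12.4 CPM, a log2 fold change of 1.39 ± 0.17 (SE, FDR 5.28e-10). The highest library without (+)-JQ1 (5.85 CPM) lay below the lowest with it (7.89 CPM). These values rest on raw counts of 33 to 321 per library. Among all 15247 peaks called higher with (+)-JQ1 in resting cells 34 had a larger log2 fold change than this one, and among the 3378 called higher with LPS + (+)-JQ1 against LPS 196 did. LPS itself raised peak 14 by 0.76 ± 0.20 (SE, FDR 0.00198), and the interaction of LPS and (+)-JQ1 was -0.13 ± 0.26 (SE, FDR 0.867), so no difference in the (+)-JQ1 effect between resting and stimulated cells was detected. IL-10 left 2.95, 3.55 and 4.04 CPM alone and 4.22, 3.77 and 3.58 CPM before LPS, with log2 fold changes of 0.33 ± 0.20 (SE, FDR 0.306) and -0.29 ± 0.19 (SE, FDR 0.353). Under all 27 refits the peak stayed called in both (+)-JQ1 comparisons, with log2 fold changes of 1.24 to 1.64 and 1.27 to 1.55.

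Its neighbours moved the same way by less. Brd2 peak 13 had 1.81, 3.63 and 4.66 CPM in unstimulated libraries against 6.08, 7.49 and 6.17 CPM with (+)-JQ1 (0.94 ± 0.20 SE, FDR 1.88e-04), and 6.02, 5.69 and 5.79 CPM with LPS alone against 8.98, 10.04 and 9.58 CPM with LPS + (+)-JQ1 (0.71 ± 0.18 SE, FDR 0.00489). Both rises were called under all 27 refits. Brd2 peak 15 (chr17:34238390-34242975), a broad and strong distal peak, had 23.4, 33.8 and 37.3 CPM in unstimulated libraries, 54.3, 57.5 and 54.7 CPM with (+)-JQ1, 56.6, 61.5 and 58.8 CPM with LPS alone and 89.3, 93.1 and 86.01 CPM with LPS + (+)-JQ1. The 3 LPS + (+)-JQ1 libraries were the highest of the 18, and the step from LPS was 0.60 ± 0.13 (SE, FDR 9.25e-04), called in all 27 refits. Its rise with (+)-JQ1 alone (0.81 ± 0.14 SE, FDR 3.34e-06) fell to 0.10 under loess offsets and was then not called. With LPS + IL-10 this peak had 44.4, 41.2 and 46.7 CPM, below every LPS library, with -0.42 ± 0.13 (SE, FDR 0.0281), which passed the FDR but not the fold limit.

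Inside the gene, the weak peaks 11 and 12, over alternative starts 6.3 and 9.0 kb from the gene start, rose with LPS + (+)-JQ1 against LPS by 0.55 ± 0.18 (SE, FDR 0.0483) and 0.56 ± 0.16 (SE, FDR 0.0176). The 3 LPS + (+)-JQ1 libraries of peak 12 (13.7, 11.02 and 11.9 CPM) lay above the LPS libraries (8.64, 8.79 and 7.35 CPM). The call of peak 11 held in 13 of the 27 refits and that of peak 12 in 24. The strong promoter peak 10 was at 0.04 ± 0.13 (SE, FDR 0.932) in the same comparison. Taken as a share of all counts in the Brd2 window, which needs no scaling of libraries, peak 14 held 1.45% to 1.63% in unstimulated, 3.13% to 3.28% in (+)-JQ1, 1.55% to 2.33% in LPS and 3.93% to 4.25% in LPS + (+)-JQ1 libraries (95% Wilson intervals of single libraries within 1.04% to 4.73%, covering counting error only). The groups with and without (+)-JQ1 did not overlap, with p = 0.1 in both settings by a two-sided exact permutation test, which cannot go lower with 3 libraries in each of 2 groups.

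**Figure D1:**
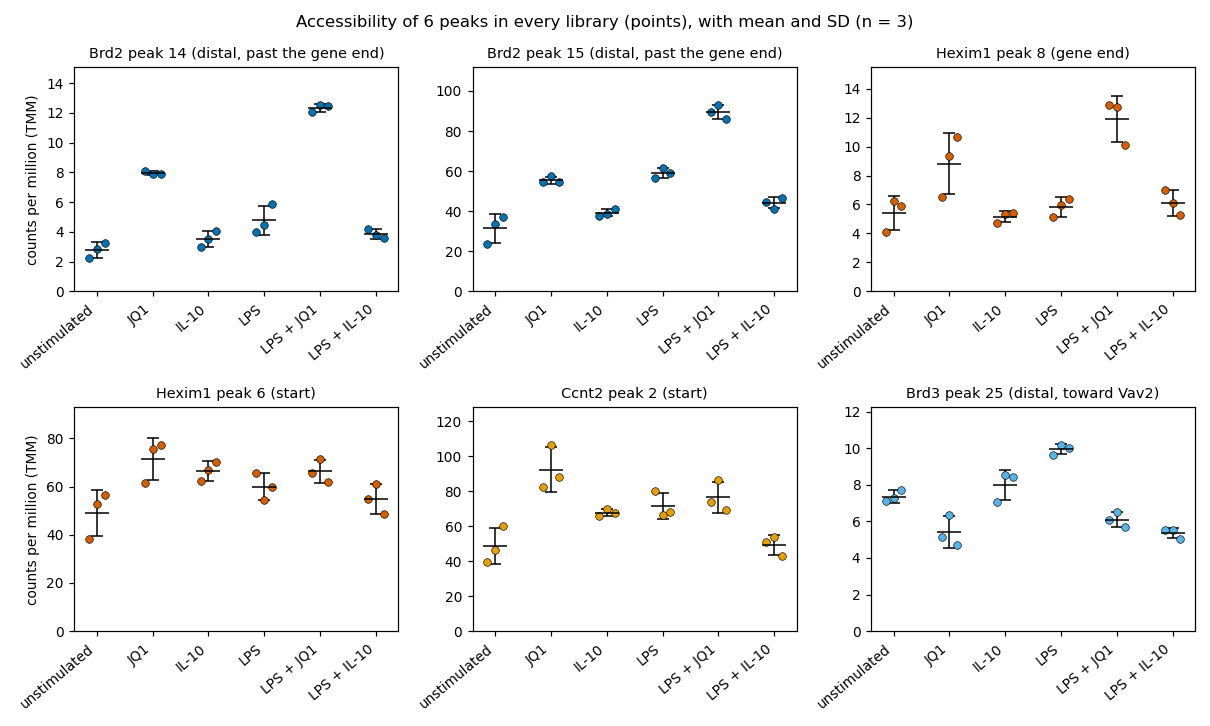
TMM-scaled CPM (vertical axis, from 0) of 6 member peaks in the 6 groups (horizontal axis), with a point per library and the mean and SD of n = 3. In Brd2 peak 14 the (+)-JQ1 libraries sit between 7.89 and 8.11 and the LPS + (+)-JQ1 libraries between 12.1 and 12.6, above all others, and Brd3 peak 25 is lower with either treatment before LPS than with LPS alone.

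At Hexim1, the calls with (+)-JQ1 in LPS-stimulated cells also lay at the 3′ end, and the start was not called there. Hexim1 peak 8 (chr11:102980742-102982651) covers the annotated end of the gene and the sequence after it. Its central 300 bases, which begin past the annotated end of the gene, are shown for this reason, on the plus strand of mm9.

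Hexim1 peak 8 (chr11:102981546-102981845): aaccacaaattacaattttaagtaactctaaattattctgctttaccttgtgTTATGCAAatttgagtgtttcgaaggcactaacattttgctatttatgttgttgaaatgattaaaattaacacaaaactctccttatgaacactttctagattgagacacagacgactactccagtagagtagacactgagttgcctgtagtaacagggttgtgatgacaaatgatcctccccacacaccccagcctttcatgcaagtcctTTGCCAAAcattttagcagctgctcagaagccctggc

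It held 2 C/EBP matches. Hexim1 peak 8 had 5.10, 5.99 and 6.39 CPM with LPS alone and 12.9, 12.7 and 10.1 CPM with LPS + (+)-JQ1, a log2 fold change of 1.02 ± 0.17 (SE, FDR 3.56e-06), called in all 27 refits. In resting cells it had 4.08, 6.26 and 5.92 CPM without treatment and 6.50, 9.31 and 10.7 CPM with (+)-JQ1 (0.69 ± 0.18 SE, FDR 0.00232). All 3 (+)-JQ1 libraries were above the unstimulated ones, though the lowest, 6.50 CPM, was close to the highest unstimulated one, 6.26 CPM, and the call was lost in 3 of 27 refits, among them that with total counts (0.42). LPS moved the peak by 0.09 ± 0.18 (SE, FDR 0.767) and IL-10 by -0.08 ± 0.18 (SE, FDR 0.831) alone and 0.07 ± 0.18 (SE, FDR 0.862) before LPS. As a share of the window's counts, peak 8 went from 3.27% ± 0.505 (SD, n = 3) with LPS to 5.75% ± 0.588 (SD, n = 3) with LPS + (+)-JQ1 without overlap (exact permutation p = 0.1, the lowest possible), while the shares in unstimulated (3.57% ± 0.558) and (+)-JQ1 (3.94% ± 0.769) libraries overlapped. Peak 8 too was chosen from these counts, so its share is not separate support.

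The small peak 7 over exon sequence of the gene, also described after its values were seen, had 1.42, 2.10 and 2.99 CPM with LPS alone and 3.84, 3.93 and 3.33 CPM with LPS + (+)-JQ1 (0.78 ± 0.25 SE, FDR 0.0389, called in 20 of 27 refits). As a share of the window's counts, peak 7 held 1.22% ± 0.48 (SD, n = 3) with LPS and 1.79% ± 0.09 (SD, n = 3) with LPS + (+)-JQ1. These shares overlapped (exact permutation p = 0.2). The start peak 6 was at 0.14 ± 0.14 (SE, FDR 0.652) in that comparison, with an approximate 95% interval of -0.12 to 0.41. In resting cells the start peak was called higher with (+)-JQ1 by 0.54 ± 0.14 (SE, FDR 0.00235), but loess offsets turned the sign to -0.23. Hexim1 peak 12 is the start of the neighbouring paralog Hexim2 and is described with the strong promoters. Of the 17 peaks in the Hexim1 window, the other 15 were not called in LPS + (+)-JQ1 against LPS.

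**Figure D2:**
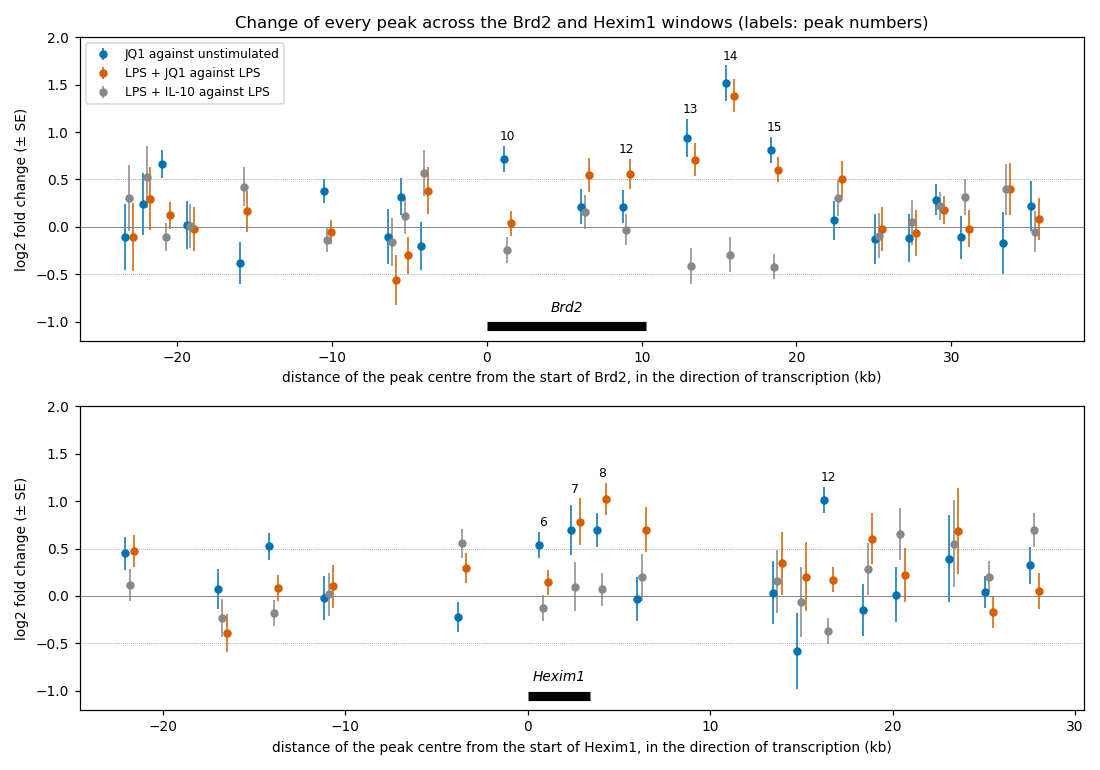
Log2 fold change with its SE (vertical axis) of every peak in the Brd2 window (upper, 22 peaks) and the Hexim1 window (lower, 17 peaks) against the distance of the peak centre from the gene start in kb (horizontal axis), for (+)-JQ1 against unstimulated, LPS + (+)-JQ1 against LPS and LPS + IL-10 against LPS, with points moved slightly sideways to keep them apart, the gene body as a black bar and the 0.5 fold limit as dotted lines. The (+)-JQ1 points of Brd2 peaks 13 to 15 and Hexim1 peaks 7 and 8 lie above the limit at or past the gene ends, in both settings, although Hexim1 peak 7 with (+)-JQ1 alone did not pass the test, and the IL-10 points there lie between -0.42 and 0.10.

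The remaining calls with LPS + (+)-JQ1 against LPS lay in the windows of Brd3 and Cdk9. Brd3 peak 25 (chr2:27293379-27294085), 7.0 kb past the Brd3 end on the side of Vav2, closed with either treatment before LPS, and its central 300 bases are shown as the only member sequence called lower in both. It held none of the motifs searched.

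Brd3 peak 25 (chr2:27293582-27293881): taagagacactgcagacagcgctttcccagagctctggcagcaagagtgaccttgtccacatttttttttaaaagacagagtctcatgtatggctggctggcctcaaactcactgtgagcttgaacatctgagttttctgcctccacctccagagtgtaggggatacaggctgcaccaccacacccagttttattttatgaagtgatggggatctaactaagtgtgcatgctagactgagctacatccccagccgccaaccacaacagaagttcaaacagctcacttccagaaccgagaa

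This peak had 9.65, 10.2 and 10.03 CPM with LPS alone, 6.06, 6.50 and 5.70 CPM with LPS + (+)-JQ1 and 5.54, 5.50 and 5.05 CPM with LPS + IL-10. Neither treated group overlapped the LPS libraries, with log2 fold changes of -0.71 ± 0.16 (SE, FDR 0.00125) and -0.89 ± 0.16 (SE, FDR 1.76e-05), both called in all 27 refits. Both comparisons share the LPS libraries, and the difference between the treatments was not tested. Without LPS the peak had 7.09, 7.25 and 7.73 CPM, and LPS moved it by 0.43 ± 0.16 (SE, FDR 0.0319), under the fold limit. Brd3 peak 22, directly past the end of the gene, moved the other way, from 6.29, 4.72 and 5.70 CPM unstimulated to 3.03, 3.55 and 3.29 CPM with LPS alone (-0.76 ± 0.20 SE, FDR 0.00191) and 5.30, 4.97 and 5.00 CPM with LPS + (+)-JQ1 (0.63 ± 0.20 SE, FDR 0.037, called in 21 of 27 refits). Brd3 peak 27, further toward Vav2, rose with LPS by 1.07 ± 0.22 (SE, FDR 4.79e-05). The internal Brd3 start, peak 15, was at 0.15 ± 0.14 (SE, FDR 0.643) for LPS + (+)-JQ1 against LPS.

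In the Cdk9 window the calls lay at neighbouring genes. Cdk9 peak 16 (chr2:32539684-32541954), over an annotated start of the folate enzyme gene Fpgs and 27.8 kb from the Cdk9 start, had 5.56, 5.34 and 5.08 CPM with LPS alone and 1.84, 2.62 and 3.45 CPM with LPS + (+)-JQ1 (-0.96 ± 0.22 SE, FDR 0.00121, called in all 27 refits). With (+)-JQ1 alone it fell by 0.66 on the log2 scale (SE 0.23, FDR 0.0373), called in 19 of 27 refits. Cdk9 peak 18 in the body of Eng, named after its values were seen, fell by 0.66 on the log2 scale (SE 0.16, FDR 0.00231) with LPS + (+)-JQ1 against LPS. Cdk9 peak 1 in the body of Sh2d3c rose in the same comparison, from 11.4, 10.04 and 10.6 CPM to 14.7, 16.97 and 16.2 CPM (0.58 ± 0.14 SE, FDR 0.00452). The Cdk9 start, peak 6, was at -0.04 ± 0.14 (SE, FDR 0.934) and peak 5 before it at 0.10 ± 0.13 (SE, FDR 0.768). None of the 25 Ccnt1 and 21 Ccnt2 peaks was called with LPS + (+)-JQ1 against LPS by edgeR, where 1 and 0 had an unadjusted p under 0.05, and DESeq2 called 0 of both, leaving 4 and 3 of them without an adjusted p.

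**Figure D3:**
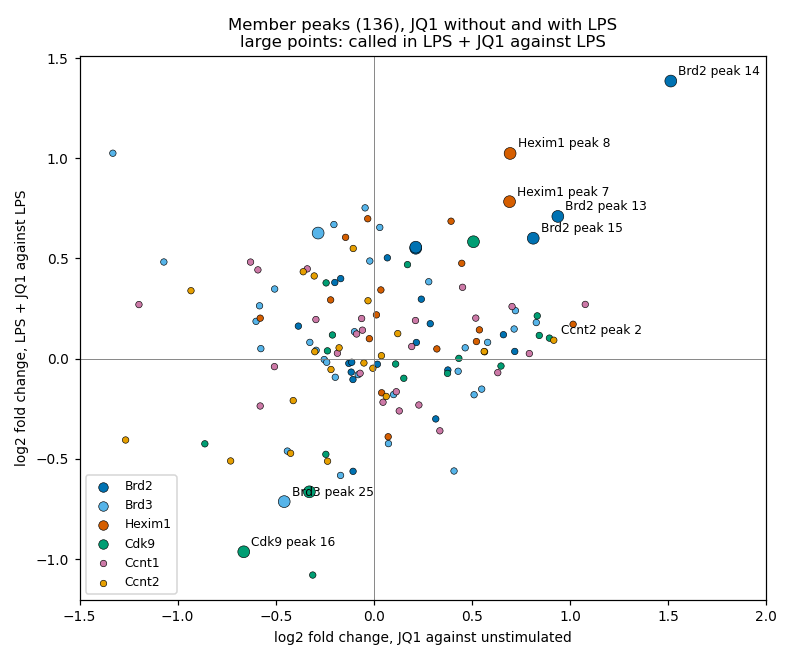
Log2 fold change of the 136 member peaks with (+)-JQ1 against unstimulated (horizontal axis) and with LPS + (+)-JQ1 against LPS (vertical axis), colored by gene, with large points for the 12 peaks called in the latter. Brd2 peak 14 lies at 1.51 and 1.39, apart from the others, and strong start peaks such as Ccnt2 peak 2 (0.92 and 0.09) lie to the right near 0 on the vertical axis.

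Strong promoter peaks formed the other pattern, and it depended on the scaling. Of the members, 16 promoter peaks had a mean of at least 20 CPM, a limit set after the data were seen: those at or near starts of all 6 members, and those of neighbours such as Wdr5, Vav2, Hexim2, Sh2d3c and Fpgs. With (+)-JQ1 against unstimulated, 14 of the 16 were called higher with a median log2 fold change of 0.72. Among all 8699 promoter peaks of that strength 75.8% were called higher with a median of 0.66, so the members' share, 87.5%, lay near that of such promoters. Against unstimulated, IL-10 called 7 of the 16 higher (median 0.48, against 24.5% and 0.42 of all such promoters) and LPS called 4 (median 0.36, against 27.1% and 0.40). Within LPS-stimulated cells none of the 16 was called with (+)-JQ1 by edgeR (1 had an unadjusted p under 0.05, and DESeq2 called 0), with a median of 0.11 beside 0.08 for all such promoters, of which 1.29% were called higher and 1.29% lower. The 1 peak was Cdk9 peak 4, named after its values were seen, which passed the FDR and missed the fold limit (0.47 ± 0.13 SE, FDR 0.0181).

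The largest values among these 16 with (+)-JQ1 in resting cells were those of Hexim2 (peak 12 of the Hexim1 window), with 29.1, 35.1 and 42.1 CPM unstimulated and 67.6, 79.9 and 67.8 CPM with (+)-JQ1 (1.02 ± 0.14 SE, FDR 5.73e-08), Ccnt2 peak 2 (0.92 ± 0.14 SE, FDR 4.70e-07) and Cdk9 peak 5 (0.90 ± 0.13 SE, FDR 4.73e-07). In these 3 peaks all (+)-JQ1 libraries lay above all unstimulated ones. In unstimulated cells the level was lowest in replicate 1 and highest in replicate 3 at each of them, and the median over the 16 peaks was 27.4, 33.1 and 41.4 CPM in the 3 unstimulated libraries against 34.5 to 63.8 CPM in the others. For (+)-JQ1 against unstimulated, scaling by total counts left a median of 0.44 with 7 of 16 called, and loess offsets left 0.11 with 0 called by edgeR, where 8 had an unadjusted p under 0.05. For IL-10 and for LPS both scalings left 0 of 16 called by edgeR, with an unadjusted p under 0.05 at 13 and 8 peaks with total counts and at 3 and 6 with loess offsets, while DESeq2 called 8 and 5. Leaving out unstimulated replicate 1, 2 or 3 in turn gave 12, 14 and 14 of 16 calls for (+)-JQ1 (medians 0.62, 0.68 and 0.90). The same 3 omissions gave 0, 4 and 13 calls for IL-10 (medians 0.36, 0.46 and 0.65) and 1, 4 and 10 for LPS (medians 0.26, 0.32 and 0.54). At the 0 calls for IL-10, 12 of the 16 had an unadjusted p under 0.05. Without IL-10 replicate 2 the IL-10 count was 4, and without LPS replicate 1 the LPS count was 2. A change of all strong promoters and a difference in signal over background between the libraries compared cannot be told apart by counts in peaks.

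**Figure D4:**
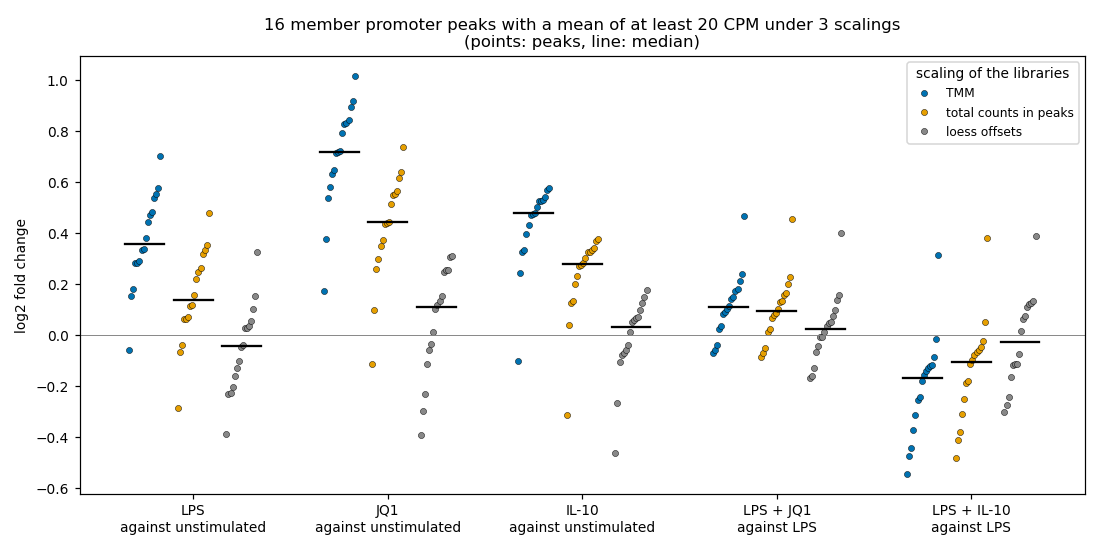
Log2 fold change (vertical axis) of the 16 member promoter peaks with a mean of at least 20 CPM in 5 comparisons (horizontal axis), each under TMM, total counts in peaks and loess offsets, with points for peaks and a line for the median. The median for (+)-JQ1 against unstimulated is 0.72, 0.44 and 0.11 under the 3 scalings, while that for LPS + (+)-JQ1 against LPS stays between 0.02 and 0.11.

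Few member peaks were called with IL-10 before LPS, and the one strong promoter among them was that of Ccnt2. Ccnt2 peak 2 had 80.3, 66.7 and 68.2 CPM with LPS and 51.05, 54 and 42.8 CPM with LPS + IL-10, without overlap (-0.54 ± 0.14 SE, FDR 0.00359). LPS + (+)-JQ1 libraries had 73.9, 86.5 and 69.2 CPM (0.09 ± 0.14 SE, FDR 0.803). The call held in 23 of 27 refits. Total counts and loess offsets left log2 fold changes of -0.48 and -0.28, both under the fold limit, and without LPS replicate 1 or LPS + IL-10 replicate 3 the values were -0.45 and -0.45 (FDR 0.0554 and 0.0571). The 16 strong member promoters had a median of -0.17 in this comparison. All 8699 promoter peaks of that strength had a median of -0.22, with 1.47% called higher and 3.49% lower. Of the calls with IL-10 before LPS, 3 were rises: Ccnt1 peak 4, the weak outermost start, from 4.13, 3.30 and 3.70 CPM to 6.76, 4.98 and 5.24 CPM (0.61 ± 0.20 SE, FDR 0.0317), Hexim1 peak 17, 0.70 ± 0.18 (SE, FDR 0.00493), and Hexim1 peak 5, 0.56 ± 0.15 (SE, FDR 0.008). In resting cells IL-10 lowered 1 member peak, Brd3 peak 26, which had only 0.55 to 0.94 CPM in unstimulated and 0.10 to 0.34 CPM in IL-10 libraries, and raised Ccnt2 peak 13 in a coding exon from 1.74, 1.15 and 1.92 CPM to 3.93, 2.67 and 2.40 CPM (0.90 ± 0.27 SE, FDR 0.019). The other 9 rises were those of 7 strong promoters, of Brd2 peak 3 over a start of H2-DMb2 and of Ccnt1 peak 25. Without unstimulated replicate 1 edgeR called 0 member peaks for IL-10 alone, where 26 had an unadjusted p under 0.05, and DESeq2 with all libraries called 11.

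With LPS alone, 7 of the 22 Brd2 peaks were called higher and 0 lower, and 2 of the 33 Brd3 peaks higher and 2 lower, beside 11.7% higher and 10.2% lower among all tested peaks. These counts moved with the scaling: with total counts 4 Brd2 and 9 Brd3 peaks were called in either direction, and the split over all members turned to 5 higher and 16 lower. The Brd2 calls beside peaks 10 and 13 to 15 were 3 peaks at or near H2-Oa, an MHC class II gene: peak 19 (0.72 ± 0.16 SE, FDR 2.27e-04), peak 20 (0.57 ± 0.21 SE, FDR 0.033) and peak 22 (1.10 ± 0.24 SE, FDR 2.43e-04). At Cdk9, peak 8, a broad peak from the end of Cdk9 across an annotated start of Fpgs, fell from 20.9, 21.1 and 22.8 CPM to 12.5, 15.6 and 13.6 CPM (-0.64 ± 0.14 SE, FDR 2.30e-04). LPS also lowered Hexim1 peak 9, 1.9 kb past the gene end (-0.70 ± 0.24 SE, FDR 0.0222), Ccnt1 peak 5 in an intron (-0.79 ± 0.30 SE, FDR 0.0393, with 3.81, 2.09 and 1.21 CPM in unstimulated libraries that overlap those with LPS) and Ccnt2 peak 21 in the body of Ysk4 (-1.04 ± 0.29 SE, FDR 0.00498). Ccnt1 peak 25, at the far end of its window and 15.8 kb from the start of Olfr279, was higher in all 3 comparisons with unstimulated cells, by 0.69 ± 0.15 (SE, FDR 2.24e-04) with LPS, 1.08 ± 0.15 (SE, FDR 1.18e-07) with (+)-JQ1 and 0.72 ± 0.15 (SE, FDR 5.56e-04) with IL-10. These 3 comparisons share the unstimulated libraries, in which it had 7.29, 12.5 and 15.8 CPM.

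The test of whether the LPS response differed with (+)-JQ1 called 2 member peaks higher and 12 lower (all peaks 0.649% and 3.19%), and that with IL-10 called 1 higher and 14 lower (all peaks 2.01% and 5.90%). A lower value means that the log2 change with LPS was lower in treated than in untreated cells. It can stand for a smaller rise or for a fall with LPS in treated cells. The LPS change within treated cells was not tested on its own. Of the 12 and 14, 10 and 10 were among the 16 strong promoters, where 41.0% and 58.3% of all promoters of that strength were called lower too. With loess offsets the calls were 3 higher and 0 lower for (+)-JQ1 and 4 higher and 2 lower for IL-10. At Brd3 peak 25 the interaction with IL-10 was -1.01 ± 0.23 (SE, FDR 0.0014) and stayed at -0.90 under loess offsets.

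The other genes of the pathway were read at their start peaks. Of 24 genes listed, 22 had such a peak, while Ell2 and Ccnk had none. With (+)-JQ1 against unstimulated 18 of the 22 were called higher and 0 lower (median 0.72), among them the 7SK protein Larp7 (0.77 ± 0.14 SE) and the pausing factor subunit Nelfa, annotated as Whsc2 (1.11 ± 0.14 SE), against 51.5% of the start peaks of all genes with a median of 0.52. Not called were Mepce, the 7SK capping enzyme (0.06), Aff1 (0.20), Nelfcd (0.28) and Mnat1 (0.41). Of the 22, only Mepce and Mnat1 had a mean under 20 CPM. Among all 8699 promoter peaks with a mean of at least 20 CPM 75.8% were called higher with a median of 0.66. The share of the 22, 81.8%, thus lay near that of strong promoters. Other scalings are not given for these 22 peaks. At the 16 strong member promoters loess offsets left 0 called in this comparison. With LPS + (+)-JQ1 against LPS and with LPS + IL-10 against LPS 0 of the 22 were called by edgeR, where 1 and 8 had an unadjusted p under 0.05, and DESeq2 called 0 in both too. Of the 8, 3 passed the FDR and missed the fold limit: Larp7 (-0.44 ± 0.14, FDR 0.0236), Ell, a subunit of the super elongation complex (-0.42 ± 0.14, FDR 0.0322), and Mllt3 of the same complex (-0.44 ± 0.14, FDR 0.0241). The medians of the 22 in these comparisons were 0.08 and -0.24, beside 0.05 and -0.19 for the start peaks of all genes. Against unstimulated, LPS and IL-10 each called 6 of the 22 higher (27.3%), beside 19.8% and 16.3% of the start peaks of all genes. Of all promoter peaks with a mean of at least 20 CPM, they called 27.1% and 24.5% higher.

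The start peaks of Ccnt2, Brd3, Hexim1 and Cdk9 had close likenesses among other genes over the 18 libraries, as a description of levels that share library, depth and scaling. Ccnt2 was most like Oaz1 (Pearson r = 0.99), Klf6 (0.99) and Gtdc1 (0.99), Brd3 like Faf1 (0.98), BC024659 (0.98) and Rnf103 (0.98), Hexim1 like Thg1l (0.97), Fastkd1 (0.96) and Qser1 (0.96), and Cdk9 like Hdac3 (0.97), Rell2 (0.97) and D730040F13Rik (0.96). The weak start peaks were less alike: Brd2 peak 12 with Gp49a (0.88), Lilrb4 (0.88) and Tlr2 (0.86), and Ccnt1 peak 4 with Itgax (0.86), Fyb (0.84) and Sphk1 (0.84). These are the 3 highest of 13649 genes for each member.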

How the data were processed

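ATAC-seq was read from the deposited table of raw counts per peak, made by the authors over a union of peaks in mm9, with promoter and distal classes. The submitters' processing notes name Bowtie2, MACS2 and ChIPseeker, without versions in the sources used here, and the study's methods name the PEPATAC pipeline. Whether reads were shifted for the transposase offset is not given in the sources used here. The table holds 6 columns that match no sample label, which were not used.

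Counts were tested with edgeR 4.0.16 (R 4.3.3), with filterByExpr by group, TMM factors, 1 mean per group over all 18 libraries and Benjamini-Hochberg adjustment over 194230 of 194284 peaks. Scripts were tested on simulated data. Log2 levels for likeness used a prior count of 2. The members and lists were chosen with earlier results of these data known. Named peaks were, for each member, the peak over its start, the called peak with the smallest p in each comparison and direction, and every peak called in an interaction. The peaks nearest the gene start, Brd2 peaks 11 and 13, Hexim1 peak 7 and Cdk9 peak 18 were added after their values were seen, as were the other called peaks that complete a count given in the text.

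The total count in peaks was 12020526 to 25908198 per library, and intervals of single libraries cover counting error only. The labels give 3 mice and a replicate number but do not tie a number to a mouse, so p-values measure the spread between these libraries. Replicates 1 were sequenced on lane 5, replicates 3 on lane 6, and replicates 2 on lane 5 without LPS and lane 6 with it. Alternatives were DESeq2 1.42.0, its size factors, total counts, loess offsets (limma 3.58.1, span 0.3), no filter, a filter of at least 10 counts in every library, a replicate block, the lane as covariate, the compared groups only, an FDR of 0.01, no fold limit, peaks within 25 kb of the gene start, and each library left out, of which 27 were refits that give a value for every peak. The share of counts in a gene's window was added after seeing the data.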

Additional observations from a re-analysis of the deposited data

Results flagged for a closer look

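The LPS response differed between untreated and (+)-JQ1-treated cells, by the interaction term of edgeR, at 14 member peaks. Of the members 1.47% were called higher and 8.82% lower, against 0.649% and 3.19% of all tested peaks. Of the 16 strong member promoters 10 were called lower, beside 41.0% of all promoters of that strength, and with loess offsets 0 were. On the log2 scale the difference was -0.68 at Brd2 peak 10, -0.69 at Brd3 peak 10, 0.91 at Brd3 peak 22, -0.65 at Brd3 peak 23, 2.35 at Brd3 peak 26, -0.84 at Hexim1 peak 12 (Hexim2), -0.62, -0.79, -0.68 and -0.73 at Cdk9 peaks 3, 5, 6 and 12, -0.77, -0.70 and -0.81 at Ccnt1 peaks 6, 19 and 25, and -0.83 at Ccnt2 peak 2. Brd3 peak 26 had 1.38 CPM or less in every library.

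With IL-10 the same term passed at 15 member peaks. Of the members 0.735% were called higher and 10.3% lower, against 2.01% and 5.90% of all tested peaks. Of the 16 strong member promoters 10 were called lower, beside 58.3% of all promoters of that strength, and with loess offsets 0 were. The term was -0.69, -0.82 and -0.73 at Brd2 peaks 3, 10 and 15, -0.62, -0.78 and -1.01 at Brd3 peaks 15, 23 and 25, -0.94 at Hexim1 peak 12, -0.71, -0.66 and -0.92 at Cdk9 peaks 3, 5 and 12, 1.37, -0.79, -1.02 and -0.93 at Ccnt1 peaks 5, 6, 19 and 25, and -1.01 at Ccnt2 peak 2. All of these comparisons share the unstimulated and the LPS libraries.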

How the results depend on the processing

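Of 210 counts of called member peaks under alternatives, 185 were within 1.5 times the count reported. Loess offsets gave 13 instead of 21 for LPS, 8 instead of 25 for (+)-JQ1, 3 instead of 11 for IL-10, 3 instead of 14 for the interaction of LPS and (+)-JQ1 and 6 instead of 15 for that of LPS and IL-10. Peaks within 25 kb of the gene start, which are fewer, gave 11 for LPS, 5 for IL-10, 3 instead of 5 for LPS + IL-10 against LPS and 9 for the (+)-JQ1 interaction. No limit on the fold change gave 17 for IL-10 and 8 for LPS + IL-10 against LPS. The (+)-JQ1 interaction had 6 calls with only the groups compared and 3 at an FDR of 0.01. Except for the smaller sets, the cause was not tested.

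With each library left out in turn the counts ranged from 16 to 30 for LPS, 17 to 27 for (+)-JQ1, 0 to 20 for IL-10, 8 to 12 for LPS + (+)-JQ1 against LPS, 4 to 6 for LPS + IL-10 against LPS, 2 to 24 for the (+)-JQ1 interaction and 12 to 20 for the IL-10 interaction. For IL-10 the unstimulated libraries decided the count, with 0, 6 and 20 without replicates 1, 2 and 3. The (+)-JQ1 interaction had 5, 5 and 24 calls without unstimulated replicates 1, 2 and 3, 4 and 9 without (+)-JQ1 replicates 2 and 3, 2, 9 and 9 without LPS replicates 1, 2 and 3, and 2 without LPS + (+)-JQ1 replicate 3.

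Of the values called with TMM at named peaks, 4 changed sign under loess offsets. They were (+)-JQ1 against unstimulated at Hexim1 peak 6 (-0.23, FDR 0.0495), Cdk9 peak 6 (-0.035) and Ccnt1 peak 19 (-0.11), and the interaction of LPS and IL-10 at Brd3 peak 15 (0.058). Values not called with TMM changed sign too. Examples are LPS against unstimulated at Hexim1 peak 6 (0.29 to -0.20) and IL-10 against unstimulated at Cdk9 peak 6 (0.40 to -0.056). Of 2340 values of 37 named peaks under alternatives with all libraries, 2166 stayed on their side of the threshold. With 1 library left out, 4423 of 4662 did. Values called neither with TMM nor in the alternative were counted among these whatever their sign.

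What libraries of the same number share is not given, apart from the lane, which partly followed the number. Their deviations from the group means had a mean r of 0.0057 over 45 pairs, with 0 of them over 0.1. Pairs of different number had a mean r of -0.0029 over 90 pairs. Of the 18 libraries, 9 were most like those of their own number. Because the lane partly followed the number and the correlations were this small, these values cannot tell whether a number names a mouse. With the number as a replicate block the counts were 21 for LPS, 25 for (+)-JQ1, 11 for IL-10, 14 for LPS + (+)-JQ1 against LPS, 5 for LPS + IL-10 against LPS, and 11 and 16 for the (+)-JQ1 and IL-10 interactions, all within 1.5 times. Peaks of low counts, such as Brd3 peak 26 with 2 to 24 counts per library, limit the precision.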
